A study of Homo sapiens with 4 samples.

Results

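The nuclear genes of oxidative phosphorylation were examined in sorted cardiac cells derived from human embryonic stem cells. Members were the protein-coding genes whose symbols begin with NDUF, UQCR, ATP5 or COX4 to COX8, together with SDHA, SDHB, SDHC, SDHD and CYC1. The rule gave 99 of the 60234 genes in the count table. Complex I accounted for 46 of them (7 core subunits, 30 accessory subunits, 8 assembly factors and 1 readthrough gene), complex II for 4, complex III for 10, complex IV for 19 and complex V for 20. NDUFA4 and NDUFA4L2 were placed with complex IV, where the NDUFA4 protein is now known to reside.

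RNA came from the NKX2.5 eGFP/w line, an established human embryonic stem cell (hESC) line with GFP in place of 1 NKX2-5 allele. Green cells are those with an active NKX2-5 gene, an early cardiac transcription factor, and all 4 populations carry the reporter. The cultures were differentiated as spin embryoid bodies, received 1 µM retinoic acid (RA) from day 4 to day 7 or the solvent DMSO (control, CTR), and were sorted by GFP at day 31. The 4 populations were CTR GFP-, RA GFP-, CTR GFP+ and RA GFP+ cells, with 1 library each. No test between conditions was made, and a model with GFP fraction and treatment as additive terms over the 4 libraries was not fitted. The 95% intervals given are for counting error only and leave out spread between cultures, as each condition has 1 library. They take reads as independent molecules, which amplified reads are not, so they may be too narrow. In bulk RNA of a sorted population, fewer cells of a type and less RNA per cell cannot be told apart.

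Oxidative phosphorylation passes electrons from NADH through complex I, or from succinate through complex II, to complex III, cytochrome c and complex IV, which reduces oxygen. The protons pumped on the way drive complex V, the ATP synthase. Most subunits are encoded in the nucleus, a small core set in mitochondrial DNA, and heart muscle is known for its dense mitochondria and for muscle forms of a few complex IV subunits.

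Library totals were 4371101 reads for CTR GFP- cells and between 26222787 and 28643091 reads for the other 3. Levels are CPM (read counts divided by library size) scaled with TMM factors (TMM CPM), and a difference is that of log2(TMM CPM + 1) between libraries. Counts of members past a fold rest on this difference, which is slightly smaller than the log2 of the plain ratio. The sum of 8 cardiomyocyte markers was 17268 CPM in CTR GFP+ and 15512 CPM in RA GFP+ cells against 803 and 386 CPM in the matching GFP- cells, in the direction of the labels. The sum of 7 fibroblast and stroma markers was 32089 CPM in CTR GFP-, 61591 in RA GFP-, 3966 in CTR GFP+ and 15165 in RA GFP+ cells.

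To show what lies upstream of these genes, the RefSeq promoter windows (GRCh38.p14, 250 bases before to 50 bases after the first listed start) were searched on both strands for 6 motifs. Of the 99 members, 80 matched a window. The letters searched were GCGCATGCG for NRF1, a factor that controls many respiratory chain genes, TCAAGGTCA for estrogen-related receptors (ERR), CCGGAAGT for ETS factors such as GABPA, AAGATGGC for YY1 and TATAAA for the TATA box, with the muscle factor MEF2 by its name. MEF2 and TATA letters can overlap, as they did in NDUFA9. Windows of 5 genes on which later results turn are printed from 250 bases before to 30 bases after the start, 5′ to 3′ on the strand of the gene, with the motif letters in capitals. COX6A2 and COX6A1 are the muscle form and the widespread form of the same complex IV subunit. COX5B, NDUFS7 and NDUFA8 stand for the ETS, NRF1 and YY1 letters among ordinary subunits.
COX6A2 (chr16:31428331-31428610, minus strand): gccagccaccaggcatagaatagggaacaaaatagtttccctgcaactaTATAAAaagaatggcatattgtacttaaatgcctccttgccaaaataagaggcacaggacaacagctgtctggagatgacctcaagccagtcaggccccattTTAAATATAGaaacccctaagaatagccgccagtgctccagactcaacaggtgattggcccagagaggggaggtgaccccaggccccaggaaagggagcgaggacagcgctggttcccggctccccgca
COX6A1 (chr12:120437863-120438142, plus strand): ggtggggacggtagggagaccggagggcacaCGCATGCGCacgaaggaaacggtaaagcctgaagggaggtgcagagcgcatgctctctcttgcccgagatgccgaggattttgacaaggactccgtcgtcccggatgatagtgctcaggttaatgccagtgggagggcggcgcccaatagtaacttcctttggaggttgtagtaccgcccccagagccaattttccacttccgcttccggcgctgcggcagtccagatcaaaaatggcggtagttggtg
COX5B (chr2:97645812-97646091, plus strand): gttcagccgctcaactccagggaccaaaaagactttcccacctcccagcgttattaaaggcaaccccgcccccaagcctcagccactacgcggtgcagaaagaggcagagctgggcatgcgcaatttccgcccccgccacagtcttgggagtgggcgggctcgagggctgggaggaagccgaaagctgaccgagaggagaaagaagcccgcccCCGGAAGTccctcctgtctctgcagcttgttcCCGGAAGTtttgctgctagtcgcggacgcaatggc
NDUFS7 (chr19:1383657-1383936, plus strand): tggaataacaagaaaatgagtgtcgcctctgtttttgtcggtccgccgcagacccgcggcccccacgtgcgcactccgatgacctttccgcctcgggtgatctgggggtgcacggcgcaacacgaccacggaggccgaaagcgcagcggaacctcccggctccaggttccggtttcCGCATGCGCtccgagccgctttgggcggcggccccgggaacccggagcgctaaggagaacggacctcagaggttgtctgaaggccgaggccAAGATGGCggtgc
NDUFA8 (chr9:122159750-122160029, minus strand): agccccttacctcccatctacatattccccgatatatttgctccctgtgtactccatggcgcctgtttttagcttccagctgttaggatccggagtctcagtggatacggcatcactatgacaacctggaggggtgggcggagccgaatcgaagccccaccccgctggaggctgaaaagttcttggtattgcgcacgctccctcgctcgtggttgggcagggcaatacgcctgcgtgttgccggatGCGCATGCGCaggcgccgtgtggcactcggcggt

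The COX6A2 window held MEF2 letters that began 99 bases before the start and TATA letters 201 bases before it, and none of the NRF1, ETS or YY1 letters. In the COX6A1 window NRF1 letters began 219 bases before the start. COX5B held ETS letters at 37 and at 5 bases before the start, NDUFS7 held NRF1 letters 74 bases before it and YY1 letters from base 18 after it, and NDUFA8 held overlapping NRF1 letters across it. Over the 80 windows, NRF1 letters were present in 11 (13.8%, against 2.79% of 15000 protein-coding windows), YY1 letters in 11 (13.8% against 3.98%) and ETS letters in 10 (12.5% against 6.37%). Any of these letters were in 29 windows (36.25% against 12.18%), so most members' windows held none of them, unlike the printed windows of ordinary subunits. In 10 of the 11 windows with YY1 letters, a match began no more than 2 bases before the start, against 64.7% of the 597 protein-coding windows that held them. TATA letters were in 7 windows (8.75% against 9.41%), MEF2 letters in 3 (3.75% against 2.10%) and ERR letters in 1, that of SDHD (1.25% against 0.24%). A match is a description of the letters and no evidence that a factor bound there.

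**Figure D1:**
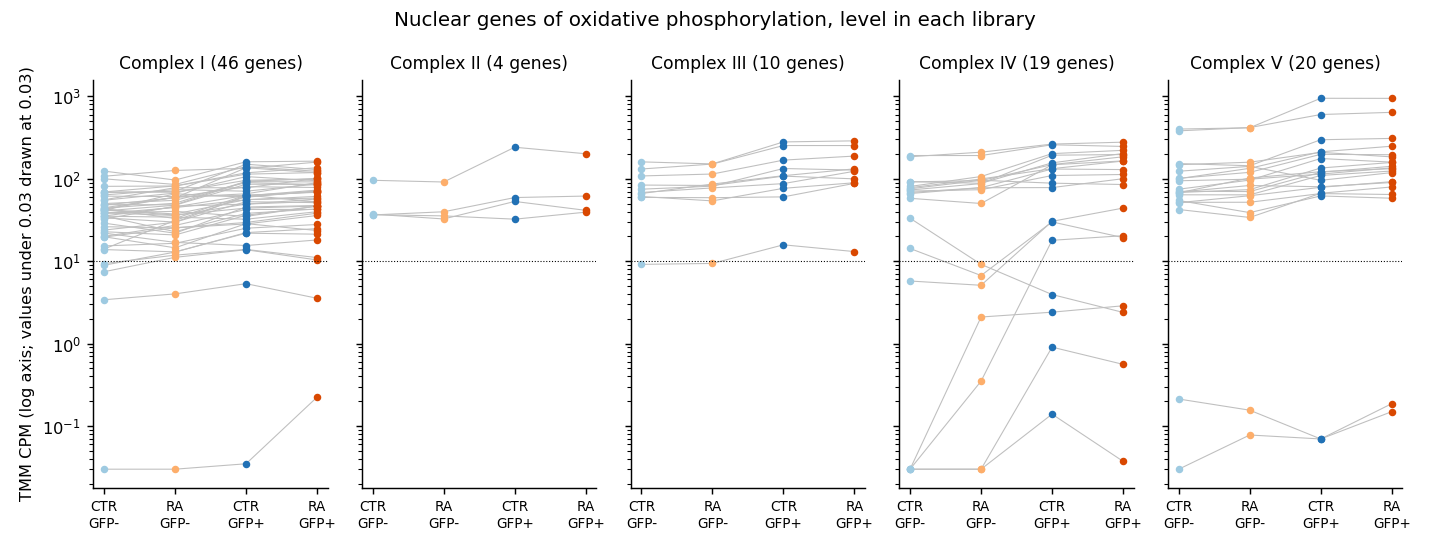
Level of each of the 99 genes in the 4 libraries, as TMM CPM on a log axis, with 1 panel per complex. Points are genes, grey lines join the same gene across libraries, genes with no read are drawn at the bottom of the axis and the dotted line marks 10 CPM. Most lines run level between CTR and RA and step up from GFP- to GFP+, and the complex IV panel holds the genes that cross others.

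Expression of the nuclear genes was general. In every library 84 of the 99 reached 10 CPM, and 92 had at least 4 reads. The 7 genes that reached 10 CPM in no library were NDUFA7, COX4I2, COX7B2, COX8C, the copy gene ATP5MGL and the readthrough genes NDUFC2-KCTD14 and ATP5MF-PTCD1. Other genes share 37.4% of the exon bases of NDUFA7, which leaves its low count uncertain. Together the 99 genes took 0.668% of the reads of CTR GFP- cells (95% interval 0.660 to 0.675) and 0.653% of RA GFP- cells (0.650 to 0.656). In CTR GFP+ and RA GFP+ cells the shares were 1.029% (1.025 to 1.033) and 1.034% (1.030 to 1.038). The share thus lay apart between GFP fractions and nearly at the same value between treatments.

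Per kb of exon in CTR GFP+ cells, the highest level in complex V was that of ATP5F1B, the catalytic beta subunit, with 423 CPM per kb. The highest in complex IV was COX8A (268 CPM per kb), in complex I NDUFS5 (244), in complex III UQCRH (80.3) and in complex II SDHA (27.7). These levels rest on the union of annotated exons. With the length of the canonical transcript COX7C, at 411 CPM per kb, exceeded COX8A within complex IV, while ATP5F1B (538), NDUFS5 (271), UQCRH (201) and SDHA (89.6) again led their complexes. NDUFB6, which had no canonical length, was outside the complex I ranking.

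The first comparison asked how the cardiac GFP+ cells differed from the GFP- cells of the same culture. In control cultures, 86 of the 92 members with at least 10 CPM in either library were higher in GFP+ cells, 93.5% against 54.6% of all 11806 genes that passed this filter. At least 1.5-fold higher were 52 members (56.5% against 24.0% of all genes) and at least 2-fold higher 18 (19.6% against 11.9%), whereas 1 was at least 2-fold lower (background 13.3%). The median log2 difference was 0.63 (0.63 over all 99 members without the filter) against 0.08 over all genes. In RA-treated cultures, 87 of 91 members were higher in GFP+ cells (95.6% against 51.5% of 11850 genes), with a median of 0.63 (0.61 over all 99) against 0.02. There 52 were at least 1.5-fold higher (57.1% against 19.2%), 17 at least 2-fold higher (18.7% against 9.97%, without NDUFS7 and NDUFB9, whose plain ratios were 2.01 and 2.003) and 0 at least 2-fold lower (background 12.4%). The difference was thus broad and of moderate size, and 83 of the 91 members that passed in both cultures were higher in both (91.2% against 43.6% of 11249 genes) and 1 was lower in both (1.10% against 35.6%).

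The interval of the ratio lay above 1 for 78 members in control cultures (84.8% against 41.0% of all genes) and below 1 for 3 (3.26% against 33.8%). In RA-treated cultures it lay above 1 for 86 (94.5% against 42.9%) and below 1 for 2 (2.20% against 40.7%). It held 1 for 10 and 3 members. COX6A2, which had no read in CTR GFP- cells, has no such ratio in control cultures. Beside this, the 8 cardiomyocyte markers were all higher in GFP+ cells (median log2 differences of 4.36 and 5.17) and 6 of the 7 stroma markers lower in both cultures (medians over the 7 of -3.14 and -2.50). The exception among the latter, PDGFRA, was higher in GFP+ cells by 0.59 and 1.09. The part of these markers in the members' difference was not tested.

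**Figure D2:**
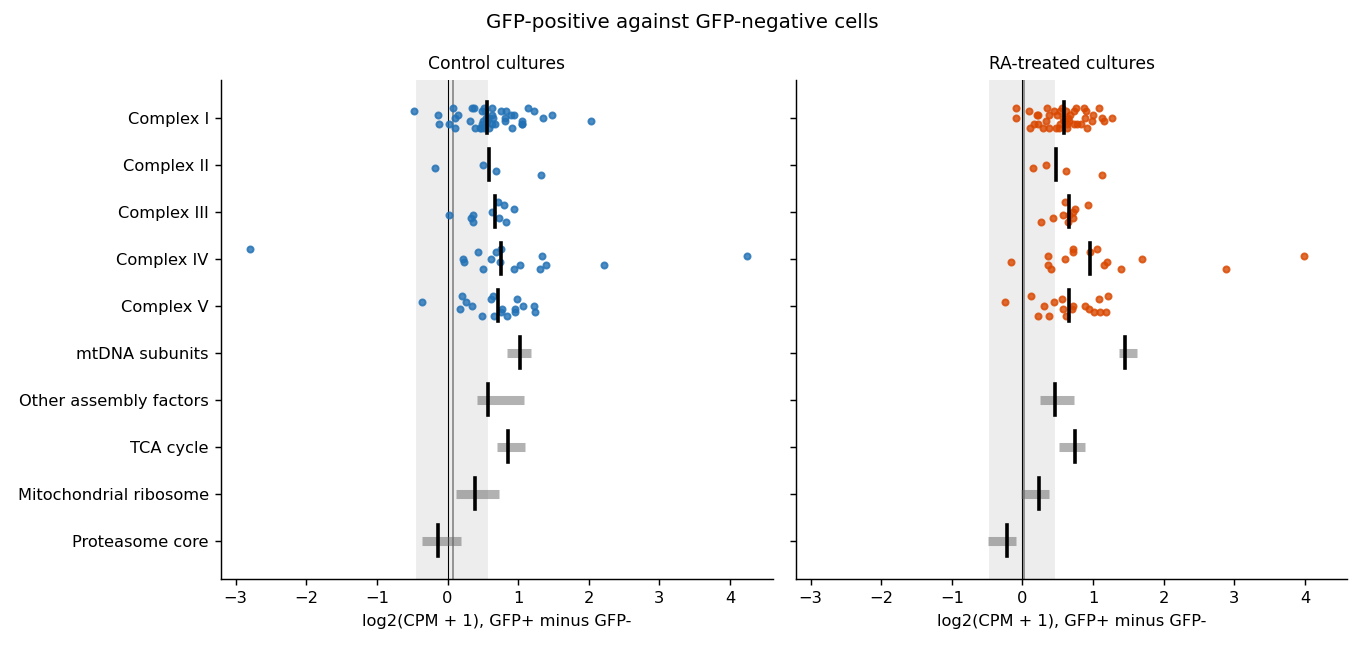
Difference of log2(CPM + 1) between GFP+ and GFP- cells (x axis) in control (left) and RA-treated (right) cultures, by group (y axis). Points are genes of a complex, grey bars the middle of the other lists from the lower to the upper quartile, black ticks medians, the shaded band the quartiles of all genes and the grey line their median. Medians of the 5 complexes lie between 0.56 and 0.75 on the left and between 0.48 and 0.95 on the right, while the proteasome core lies below 0.

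Each complex took part. Summed over the 46 genes of complex I, the NADH dehydrogenase, CPM were 1.55-fold higher in CTR GFP+ than in CTR GFP- cells (1.52 to 1.59) and 1.52-fold higher in RA GFP+ than in RA GFP- cells (1.501 to 1.535). The ratio for complex II, succinate dehydrogenase, was 1.87 (1.75 to 2.001) in control and 1.73 (1.67 to 1.79) in RA-treated cultures. For complex III it was 1.57 (1.52 to 1.62) and 1.62 (1.59 to 1.65), for complex IV 1.68 (1.64 to 1.73) and 1.70 (1.68 to 1.73), and for complex V 1.74 (1.71 to 1.78) and 1.68 (1.66 to 1.70). Complex I had the lowest ratio of summed CPM in both cultures, in control cultures within counting error of complex III. By median log2 difference complex I was lowest in control cultures (0.56) and complex II in RA-treated cultures (0.48 against 0.59 for complex I).

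Within complex I, all 7 nuclear core subunits, which carry the flavin and the iron-sulfur clusters, were higher in both cultures, with medians of 0.59 in control and 0.72 in RA-treated cultures. NDUFS7, an iron-sulfur subunit close to the quinone site, stood at 48.1 CPM in CTR GFP-, 58.7 in RA GFP-, 136 in CTR GFP+ and 118 in RA GFP+ cells. Its log2 differences between fractions were 1.48 and 1.00. NDUFV2, in the NADH-binding module, differed by 0.11 in control cultures, where the interval of its ratio held 1 (1.08, 0.893 to 1.32), and by 0.48 in RA-treated cultures. NDUFS1 and NDUFV1 of the same module differed by 0.76 and 0.37 in control and by 0.72 and 0.75 in RA-treated cultures.

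Of the accessory subunits, 27 of 29 were higher in control and 29 of 29 in RA-treated cultures. NDUFC1, a small membrane subunit, had 23.9 CPM in CTR GFP-, 29.7 in RA GFP-, 62.2 in CTR GFP+ and 72.9 in RA GFP+ cells (log2 differences of 1.35 and 1.27). NDUFA8, an intermembrane-space subunit encoded at chr9:124906337-124922058 on the minus strand (hg19), was read 66 times in CTR GFP-, 802 times in RA GFP-, 1738 times in CTR GFP+ and 1896 times in RA GFP+ cells. The corresponding levels were 14.1, 31.3, 60.7 and 70.9 CPM, so that CTR GFP- cells lay lowest by far. NDUFA8 was 4.32-fold higher in CTR GFP+ than in CTR GFP- cells (3.37 to 5.60) and its log2 difference in RA-treated cultures was 1.16. The 8 NDUFAF assembly factors, which help to build complex I and are not part of it, had medians of 0.57 and 0.52. NDUFAF8 was lower in CTR GFP+ cells (15.5 against 21.9 CPM, ratio 0.706, 0.569 to 0.884), while in RA-treated cultures its interval held 1. There NDUFAF2 and NDUFAF6 were the 2 of the 8 with a lower level in GFP+ cells (log2 differences of -0.09 and -0.10), with intervals that held 1. In control cultures they differed by 0.52 and 0.81. Among the accessory subunits, NDUFC2 had 38.5 CPM in CTR GFP- and 34.9 CPM in CTR GFP+ cells (ratio 0.906, 0.773 to 1.07), and in RA-treated cultures its ratio was 1.16 (1.07 to 1.26).

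In complex II, SDHA, the flavoprotein that oxidises succinate, had 95.8 CPM in CTR GFP-, 91.4 in RA GFP-, 241 in CTR GFP+ and 201 in RA GFP+ cells. Its log2 differences between fractions were 1.32 and 1.13. SDHB, the iron-sulfur subunit, differed by 0.69 and 0.62 and the membrane anchor SDHD by 0.50 and 0.34. The other anchor, SDHC, had 36.6 CPM in CTR GFP- and 32.3 CPM in CTR GFP+ cells, a ratio of 0.883 whose interval held 1 (0.7498 to 1.05). In RA-treated cultures it had 35.5 CPM in GFP- and 39.3 CPM in GFP+ cells, a ratio of 1.11 (1.01 to 1.21). Reads on 4 SDHA pseudogenes, which were not added, made up 33% of the joint reads in CTR GFP-, 32.9% in RA GFP-, 32.6% in CTR GFP+ and 29.8% in RA GFP+ cells.

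In complex III, the cytochrome bc1 complex, 10 of 10 genes were higher in GFP+ cells in both cultures. The core proteins UQCRC1 and UQCRC2 differed by 0.94 and 0.80 in control and by 0.74 and 0.93 in RA-treated cultures. CYC1, which carries the c-type heme, differed by 0.83 and 0.64, and UQCRFS1, the Rieske iron-sulfur protein, by 0.71 and 0.61. UQCRQ, a small subunit, stood apart in control cultures, with 59.4 CPM in GFP- and 60.3 CPM in GFP+ cells, against 59.0 and 88.0 CPM in RA-treated cultures.

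In complex IV, cytochrome c oxidase, the widespread subunits COX5A and COX7B were among the members with the widest gap between fractions. COX5A had 73.0 CPM in CTR GFP-, 87.5 in RA GFP-, 193 in CTR GFP+ and 197 in RA GFP+ cells, and log2 differences of 1.39 and 1.16. COX7B had 57.9, 50.2, 148 and 165 CPM in the same order and differences of 1.34 and 1.70. COX5B, whose window with ETS letters is printed above, differed by 0.75 and 1.19. COX4I1, the regulatory subunit that binds ATP, differed less, by 0.51 and 0.40. COX7A2L, which takes part in joining complexes III and IV, had 75.6, 95.9, 88.5 and 85.2 CPM, and its direction between fractions was not the same in both cultures.

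In complex V, ATP5F1B was at 401 CPM in CTR GFP-, 416 in RA GFP-, 947 in CTR GFP+ and 945 in RA GFP+ cells, with log2 differences of 1.24 and 1.18. The alpha, gamma and delta subunits ATP5F1A, ATP5F1C and ATP5F1D differed by 0.66, 0.96 and 1.07 in control and by 0.61, 0.71 and 0.89 in RA-treated cultures. ATP5F1E, the epsilon subunit of the same F1 head, went the other way. It had 124 CPM in CTR GFP-, 141 in RA GFP-, 95.8 in CTR GFP+ and 119 in RA GFP+ cells, a ratio of 0.775 in control (0.709 to 0.849) and 0.840 in RA-treated cultures (0.8002 to 0.881). Of the 91 members that passed the filter in both cultures, it alone was lower in GFP+ cells in both. Of its exon bases, 23.2% are shared with TUBB1 on the opposite strand, which counting without strand leaves uncertain. The share of exon bases that overlap other genes was larger in NDUFS7 (36.1%), COX8A (35.4%), NDUFC1 (31.5%) and COX6B2 (29.1%). ATP5IF1, the inhibitor of the ATP synthase, differed by 0.98 and 1.09.

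The 3 genes ATP5MC1, ATP5MC2 and ATP5MC3 encode the same mature c subunit of the rotor ring. ATP5MC3 took 44.5% of their reads in CTR GFP- (42.1 to 47.0), 42.7% in RA GFP- (41.7 to 43.8), 51.9% in CTR GFP+ (51.1 to 52.6) and 53.9% in RA GFP+ cells (53.1 to 54.7). ATP5MC2 took 43.1%, 47.2%, 36.5% and 32.2% in the same order. Per kb of the canonical transcript ATP5MC2 had the highest share in all 4 libraries, at 65.3%, 69.9%, 60.3% and 54.6%, with ATP5MC3 at 16.5%, 15.5%, 20.9% and 22.4%. By reads and by this length, the share of ATP5MC3 was higher and that of ATP5MC2 lower in both GFP+ libraries than in either GFP- library.

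**Figure D3:**
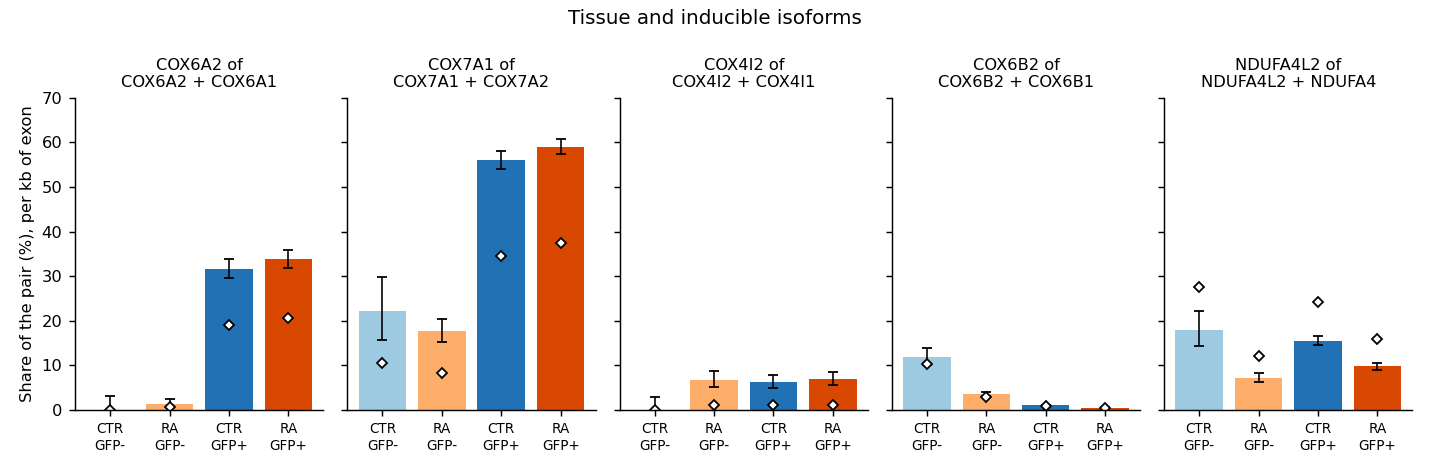
Share of each tissue or inducible isoform in the summed level of its gene pair, per kb of exon (bars, in percent, with 95% counting intervals), in the 4 libraries. Open diamonds give the share with the length of the canonical transcript. COX6A2 and COX7A1 take larger shares in both GFP+ libraries than in either GFP- library with both lengths.

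Complex IV holds pairs of genes for the same subunit, and here single members stood far from the rest. COX6A2, the heart and skeletal muscle form of subunit VIa, encoded at chr16:31439052-31439681 on the minus strand (hg19), was read 0 times in CTR GFP-, 9 times in RA GFP-, 514 times in CTR GFP+ and 545 times in RA GFP+ cells. In CTR GFP+ cells it was at least 28.1-fold higher than in CTR GFP- cells, taking a floor of 3 reads for the latter. In RA-treated cultures the ratio was 58.1 (30.4 to 128). The widespread form COX6A1 had 70.9, 73.7, 110 and 113 CPM in CTR GFP-, RA GFP-, CTR GFP+ and RA GFP+ cells. COX6A2 took 31.7% of the pair per kb of exon in CTR GFP+ (29.7 to 33.7) and 33.9% in RA GFP+ cells (31.8 to 35.9), against 1.329% in RA GFP- cells and 0 of 333 reads in CTR GFP- cells, an upper bound of 3.06%. With canonical lengths the 2 GFP+ shares were 19.1% and 20.7%. Reads on 7 COX6A1 pseudogenes, between 18.6% and 24.5% of the joint reads, were not added to COX6A1.

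COX7A1, the muscle form of subunit VIIa, at chr19:36641824-36643351 on the minus strand (hg19), was read 27 times in CTR GFP-, 131 times in RA GFP-, 873 times in CTR GFP+ and 1179 times in RA GFP+ cells. Levels were 5.75, 5.11, 30.5 and 44.1 CPM. The ratio between fractions was 5.30 in control (3.62 to 8.09) and 8.64 in RA-treated cultures (7.20 to 10.4). Its share of the COX7A1 and COX7A2 pair was 22.2% in CTR GFP-, 17.7% in RA GFP-, 56.1% in CTR GFP+ and 59.1% in RA GFP+ cells per kb of exon, and 10.6%, 8.18%, 34.6% and 37.4% with canonical lengths. COX7A1 exceeded COX7A2 in GFP+ cells with the first length and not with the second.

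The other isoforms were low or had another pattern. COX6B2, known from testis, was highest in CTR GFP- cells, with 156 reads (33.2 CPM) against 235 (9.16 CPM) in RA GFP-, 113 (3.94 CPM) in CTR GFP+ and 64 (2.39 CPM) in RA GFP+ cells. It was 0.119 of the GFP- level in CTR GFP+ cells (0.0923 to 0.152), the only member at least 2-fold lower there. NDUFA4L2, induced by low oxygen, had 14.3, 6.70, 30.0 and 19.3 CPM in CTR GFP-, RA GFP-, CTR GFP+ and RA GFP+ cells, and its log2 differences between fractions were 1.02 and 1.40. COX4I2, a form known from lung and low oxygen, had 0, 54, 69 and 77 reads (0, 2.10, 2.41 and 2.88 CPM), and its partner COX4I1 between 870 and 7549. The absence of reads comes from the smallest library. COX8C, also known from testis, had 0, 0, 26 and 15 reads and COX7B2 0, 0, 4 and 1.

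**Figure D4:**
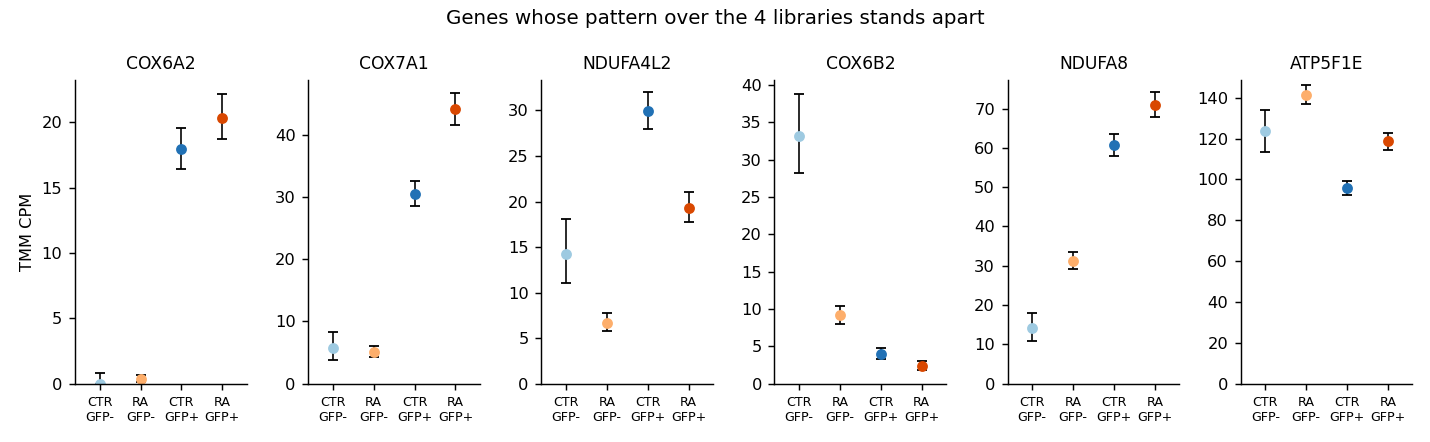
Level of 6 genes in the 4 libraries, as TMM CPM on linear axes from 0, with 95% Poisson counting intervals. COX6A2 and COX7A1 are high in both GFP+ libraries, COX6B2 in CTR GFP- cells alone, NDUFA4L2 lies lower in each RA library than in its control, NDUFA8 is lowest in CTR GFP- cells and ATP5F1E is lower in each GFP+ library than in the GFP- library of its culture.

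The next comparison asked whether RA changed these genes in cardiac cells. Of 91 members that passed the filter in GFP+ cells, 61 were higher in RA GFP+ than in CTR GFP+ cells, 67.0% against 52.2% of 11186 genes. No member was at least 2-fold higher (background 4.14%) and none at least 2-fold lower (background 1.67%). The median log2 difference was 0.12 (0.11 over all 99 members) against 0.02 over all genes. At 1.5-fold, 0 were higher (background 8.14%) and 1, NDUFA4L2, was lower (1.10% against 5.35%). The interval lay above 1 for 50 members (54.9% against 36.2% of all genes), below 1 for 17 (18.7% against 32.4%) and held 1 for 24. With scaling by library size alone, 50 members were higher and 41 lower with a median of 0.05, and the median of all genes moved to -0.06. The summed stroma markers were 15165 CPM in RA GFP+ against 3966 CPM in CTR GFP+ cells. Of the 8 cardiomyocyte markers 7 were lower with RA (median log2 difference -0.39, with TTN at -0.73 and MYBPC3 at -0.79), while MYH6, the most abundant, differed by 0.06. The part of either list in the small differences of the members was not tested.

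**Figure D5:**
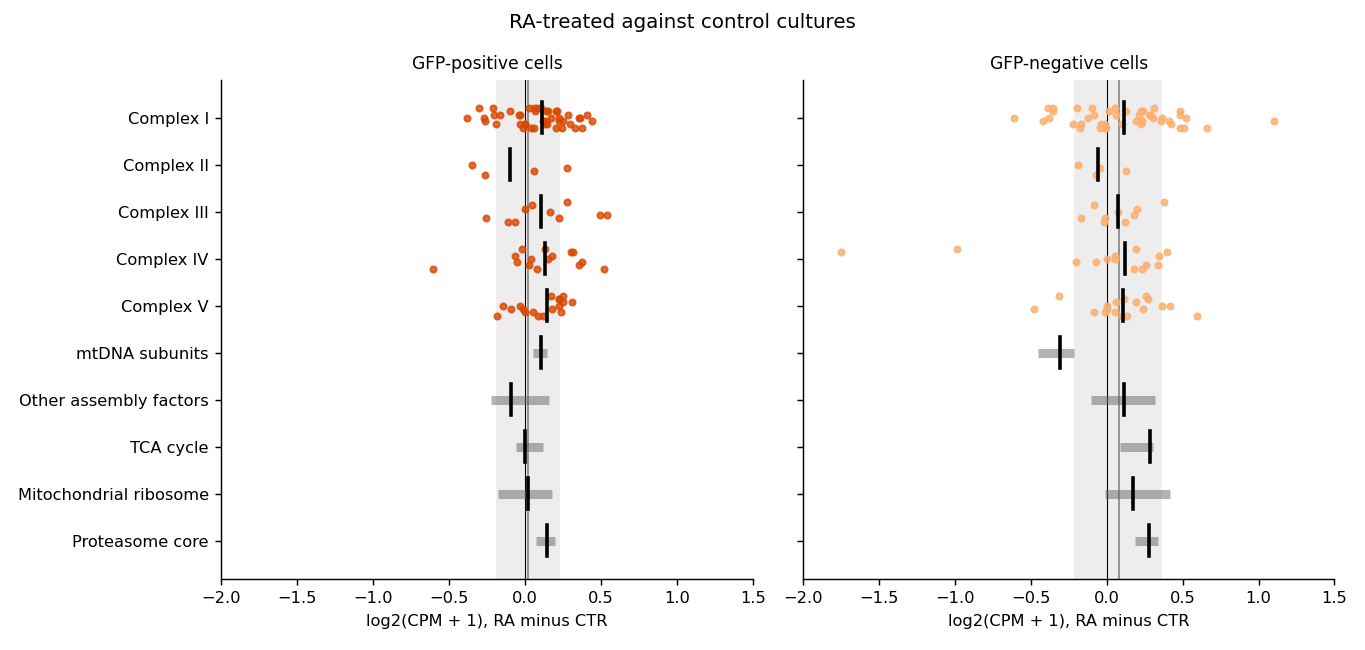
Difference of log2(CPM + 1) between RA-treated and control cells (x axis) in GFP+ (left) and GFP- (right) cells, by group (y axis), drawn in the same manner as the plot of fraction differences and over a narrower range. On the left no gene of the 5 complexes reaches a difference of 1 in either direction, and on the right NDUFA8 lies above 1 and COX6B2 below -1.

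UQCRQ and UQCR11, small subunits of complex III, were among the 5 members past the filter with the highest RA ratio in GFP+ cells. UQCRQ had 60.3 CPM in CTR GFP+ and 88.0 CPM in RA GFP+ cells (ratio 1.46, 1.37 to 1.55), and UQCR11 87.4 and 123 CPM (1.41, 1.34 to 1.49). COX7A1 was 1.45-fold higher in RA GFP+ than in CTR GFP+ cells (1.32 to 1.58). The complex I accessory subunits NDUFA11 and NDUFC2 had ratios of 1.37 (1.29 to 1.45) and 1.34 (1.23 to 1.46). All 5 ratios lay under 1.5.

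Among the members that passed the filter, NDUFA4L2 had the lowest log2 difference, with a ratio of 0.645 (0.577 to 0.720), and the assembly factor NDUFAF6 the next (0.751, 0.642 to 0.878). SDHD had 53.1 CPM in CTR GFP+ and 41.4 CPM in RA GFP+ cells (0.781, 0.722 to 0.844). The assembly factor NDUFAF2 (0.797, 0.683 to 0.929) and the accessory subunit NDUFS6 (0.827, 0.771 to 0.887) were also among the 5 lowest log2 differences. Below 10 CPM in both libraries, COX6B2 had a ratio of 0.607 (0.439 to 0.832) and the accessory subunit NDUFA7 0.665 (0.510 to 0.865). SDHA lay lower with RA as well (log2 difference -0.26), whereas SDHC lay higher (0.27). The summed CPM of complex II were 0.890 of the control level (0.866 to 0.915), while those of complexes I, III, IV and V were 1.05, 1.09, 1.09 and 1.05 of it.

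COX6A2 differed by 0.17 between RA GFP+ and CTR GFP+ cells, with 17.9 CPM in CTR GFP+ and 20.4 CPM in RA GFP+ cells. ATP5F1B, ATP5F1C and UQCRC1 differed by less than their counting error. These 3 subunits thus lay close to the control level in the RA library.

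In GFP- cells, 54 of 89 members were higher in RA than in CTR libraries, 60.7% against 57.5% of 11606 genes. The median log2 difference of 0.10 (0.08 over all 99) stood near that of all genes, 0.08, so that the members did not stand apart. At least 2-fold higher was 1 member, NDUFA8 (background 4.95%), and at least 2-fold lower 1, COX6B2 (background 3.18%). NDUFA8 no longer passed with library size alone, without mitochondrial and the 10 most abundant genes, with a pseudocount of 5 CPM or after thinning, and NDUFA4L2 joined COX6B2 under 5 settings. NDUFA4L2, at 0.470 of the control level, had a log2 difference of -0.99 and was not counted. At 1.5-fold, 3 were higher (3.37% against 12.8%) and 3 lower (3.37% against 8.72%). Intervals lay above 1 for 37 (41.6% against 35.1% of all genes), below 1 for 12 (13.5% against 23.7%) and held 1 for 40. With scaling by library size alone the median was -0.03 with 38 higher and 51 lower.

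NDUFA8 was 2.22-fold higher in RA GFP- than in CTR GFP- cells (1.73 to 2.90). The accessory subunit NDUFB7 (1.59, 1.37 to 1.86) and ATP5PB, the peripheral stalk subunit b (1.51, 1.35 to 1.71), followed. The assembly factor NDUFAF6 (1.495, 1.05 to 2.19) and the core subunit NDUFS3 (1.44, 1.21 to 1.71) were the next by log2 difference. COX6B2 was 0.276 of the control level (0.224 to 0.340) and NDUFA4L2 0.470 of it (0.352 to 0.633). The next lowest were the small subunits NDUFB3 (0.645, 0.542 to 0.771) of complex I and ATP5ME (0.713, 0.621 to 0.821) of complex V, and the assembly factor NDUFAF5 (0.734, 0.583 to 0.931). In the same comparison all 8 cardiomyocyte markers were lower with RA (median log2 difference -1.15) and all 7 stroma markers higher (median 1.26), and their part was not tested. NDUFA4L2 and COX6B2 were lower with RA in both fractions. Of the 88 members that passed in both fractions, 37 were higher in both (42.0% against 34.5% of 10385 genes) and 12 lower in both (13.6% against 23.2%), whether or not their intervals held 1. In 8 the directions were opposite with both intervals clear of 1 (9.09% against 14.5%), and between fractions the same held for 1 of 91 (1.10% against 6.26%).

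Other mitochondrial groups were set beside the members. The 13 subunits encoded in mitochondrial DNA took 6.09% of the reads of CTR GFP-, 4.57% of RA GFP-, 12.002% of CTR GFP+ and 12.3% of RA GFP+ cells. Their median log2 difference between fractions was 1.03 in control and 1.45 in RA-treated cultures, above the 0.63 of the nuclear members in both. Reads on mitochondrial subunits of complex IV per read on its nuclear genes were 23.0 in CTR GFP-, 17.3 in RA GFP-, 27.2 in CTR GFP+ and 27.1 in RA GFP+ cells. For complex I the figures were 11.1, 8.67, 17.0 and 17.4. The gap between fractions was smaller in control cultures for complex III (4.95, 4.11, 5.58 and 5.45) and complex V (2.12, 1.53, 2.42 and 2.29) than for complex I. In RA GFP- cells all 13 were lower than in CTR GFP- cells (median -0.31), while the nuclear members had a median of 0.10.

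The 13 TCA cycle genes had medians between fractions of 0.85 in control and 0.74 in RA-treated cultures, with 13 of 13 and 12 of 13 higher in GFP+ cells. The 31 other assembly factors had 0.57 and 0.47. Of the 76 genes of the mitochondrial ribosome, the 73 and 74 that passed the filter had 0.38 and 0.23, and the proteasome core, a complex outside mitochondria that every cell uses, had -0.14 and -0.22. Nuclear members thus lay between the TCA cycle and the mitochondrial ribosome in both cultures.

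Among 16 regulators, PPARGC1A, the coactivator of mitochondrial biogenesis, had 10.0 CPM in CTR GFP-, 5.96 in RA GFP-, 46.8 in CTR GFP+ and 69.5 in RA GFP+ cells. ESRRG, an estrogen-related receptor of the heart, had 9.58, 9.27, 49.1 and 51.5 CPM. ESRRA, its relative, differed between fractions by 1.30 and 0.74. NRF1 differed by 0.37 and 0.08, GABPA by 0.07 and -0.20, YY1 by 0.07 and -0.30 and TFAM, which packages mitochondrial DNA, by 0.16 and 0.13. In control cultures, 5 of 15 regulators that passed the filter were at least 2-fold higher in GFP+ cells (33.3% against 11.9% of all genes), namely ESRRG, PPARGC1A and ESRRA with TFB1M (1.48), a mitochondrial transcription factor, and the fatty acid receptor PPARA (1.16). In RA-treated cultures 2 of 13 were, ESRRG and PPARGC1A (15.4% against 9.97%), while PPARA differed by 0.47 and TFB1M, under 10 CPM in both libraries there, by 0.21. The median over the regulators that passed was 0.42 in control and 0.13 in RA-treated cultures. Members with NRF1, ETS or YY1 letters in their window had median fraction differences of 0.65 in control and 0.64 in RA-treated cultures (28 genes), and those without 0.60 (48 genes) and 0.61 (47 genes).

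Of the carriers that serve the chain, the ADP/ATP carrier of heart and muscle, SLC25A4, had 66.9 CPM in CTR GFP-, 58.8 in RA GFP-, 370 in CTR GFP+ and 365 in RA GFP+ cells. The more widespread SLC25A5 differed between fractions by 0.42 and 0.10. The muscle creatine kinase CKM and its mitochondrial counterpart CKMT2 were 338 and 63.0 CPM in CTR GFP+ and 158 and 45.8 CPM in RA GFP+ cells, against no more than 2.13 CPM in either GFP- library. CYCS, cytochrome c, differed between fractions by 0.72 and 1.34.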

How the data were processed

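The authors trimmed paired 75 bp reads, mapped them with GSNAP to an hg19 genome they had customised, kept uniquely aligned reads and counted reads per Ensembl gene with HTSeq 0.6.1p1 without strand. The deposited values are raw counts. The Ensembl release is not given in the sources used here. Unique alignment undercounts genes with near-identical copies: 196 rows are pseudogenes of 52 members and took 1.81 to 2.13% of the joint reads. In 47 members exon bases are shared with another gene, and in 31 the share is over 10%.

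Names and exon lengths were taken from GENCODE 44 lifted to GRCh37 (92.2% of identifiers matched). TMM factors over the 4 libraries (edgeR 4.0.16, R 4.3.3) turned counts into CPM, and differences were taken of log2(CPM + 1) where either library reached 10 CPM. Ratios carry Clopper-Pearson and CPM exact Poisson 95% intervals (scipy 1.17.1). The floor is 3 reads per library. The procedure was tested on simulated data.

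Members and lists were chosen with earlier results of these data known. Genes named were the isoform pairs, the 5 highest and 5 lowest members per comparison, the highest per kb in each complex, fixed core subunits, and regulators and carriers. Other genes were named after their values were seen. SCO2, an assembly factor, was not analysed here. The values of 1 fixed core subunit are not reported here. Alternatives used other scalings (DESeq2 1.42.0 among them), pseudocounts, filters, thinning and member sets.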

Additional observations from a re-analysis of the deposited data

Results flagged for a closer look

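Going opposite ways in the 2 GFP fractions, with both counting intervals clear of 1, flagged 8 members for the RA difference (9.09% of 88, against 14.5% of all genes by the same rule). Whether the fractions differ in this was not tested, since each condition has 1 library. The assembly factor NDUFAF6 was lower with RA in GFP+ cells (log2 difference -0.38) and higher in GFP- cells (0.52), and so were the complex I subunits NDUFB4 (-0.16 and 0.28) and NDUFS7 (-0.20 and 0.28) and ATP5PO, in the stalk of complex V (-0.15 and 0.36). The opposite order, higher in GFP+ and lower in GFP- cells, was seen for the assembly factor NDUFAF8 (0.21 and -0.36), the complex I subunit NDUFB3 (0.17 and -0.61), the complex IV subunit COX7B (0.15 and -0.20) and the c subunit gene ATP5MC1 (0.25 and -0.31).

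Between fractions, COX7A2L was higher in GFP+ cells of control cultures (0.22) and lower in those of RA-treated cultures (-0.17), which was not tested either.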

How the results depend on the processing

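The median of the members between GFP+ and GFP- cells stayed positive under every alternative run, between 0.53 and 0.67 in control and between 0.58 and 0.69 in RA-treated cultures. The RA median in GFP+ cells lay between 0.05 and 0.12, and less the median of all genes between 0.09 and 0.11. In GFP- cells it turned to -0.035 with library size alone and to -0.022 without mitochondrial and the 10 most abundant genes, as the scaling moved the median of all genes to -0.06 and -0.05. Over the scaling, pseudocount and thinning alternatives, 20 of 91 members changed direction with RA in GFP+ and 21 of 89 in GFP- cells, against 4 of 92 and 2 of 91 between fractions.

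With a threshold of 1.5-fold, 52 members were higher between fractions in each culture, 1 was lower with RA in GFP+ cells, and 3 were higher and 3 lower with RA in GFP- cells, shares below those of all genes (5.35%, 12.8% and 8.72%). In GFP- cells, none passed 2-fold higher with library size alone, without mitochondrial and abundant genes, with a pseudocount of 5 CPM or thinned, so 0 in place of NDUFA8, and 2 did (with COX4I2) with a filter of 1 CPM or none. At least 2-fold lower were 2 (with NDUFA4L2) with library size alone, DESeq2 or upper quartile factors, a pseudocount of 0.25 CPM or without mitochondrial and abundant genes. With a filter of 1 CPM or none, 1 member (COX6B2) was at least 2-fold lower in RA GFP+ than RA GFP- cells. Without tissue and inducible isoforms, an alternative chosen after seeing the data, 0 were at least 2-fold lower in CTR GFP+ cells and 0 in RA GFP- cells.

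Shares without length were, for COX6A2, 0.474% in RA GFP-, 14.1% in CTR GFP+ and 15.3% in RA GFP+ cells. For COX7A1 they were 7.99% in CTR GFP-, 6.16% in RA GFP-, 28.0% in CTR GFP+ and 30.6% in RA GFP+ cells. With canonical lengths, chosen after seeing the data, COX6A2 took 19.1% and 20.7% in CTR GFP+ and RA GFP+ cells, and COX7A1 10.6%, 8.18%, 34.6% and 37.4% in CTR GFP-, RA GFP-, CTR GFP+ and RA GFP+ cells. Thinned, COX7A1 took 61.3% in RA GFP+ cells. The smallest library, CTR GFP-, limits the low isoforms, where 3 reads are 0.639 CPM. GFP+ and GFP- cells of a treatment share a culture, but a model that pairs them was not fitted, since it would leave 1 residual degree of freedom.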

Other observations

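The pseudogenes of members held reads of their own. Rows for 4 SDHA pseudogenes had 222 reads in CTR GFP-, 1151 in RA GFP-, 3341 in CTR GFP+ and 2279 in RA GFP+ cells, and the 7 COX6A1 pseudogenes 76, 585, 931 and 980. These reads belong either to the pseudogenes or to the parent genes, and which was not tested.

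The gut and liver endoderm markers summed to 918 CPM in RA GFP- cells against 149 CPM in CTR GFP- cells, and to 90.0 CPM in RA GFP+ against 31.6 CPM in CTR GFP+ cells. The neural and eye markers summed to 140 against 298 CPM in GFP- cells and, the other way round, to 75.2 against 19.7 CPM in GFP+ cells. Proliferation markers summed to 90.5 CPM in CTR GFP-, 129 in RA GFP-, 19.5 in CTR GFP+ and 48.0 in RA GFP+ cells. Their part in the RA differences of the members was not tested.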
